A study of Arabidopsis thaliana with 6 samples.

Results

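The 34 genes described here encode the enzymes and regulators that lead from phenylalanine to flavonols and anthocyanins in Arabidopsis thaliana. They were taken from a fixed list of gene identifiers, drawn up by function with earlier results of these data known, and all 34 were among the 38194 loci counted in each library. They comprise 8 genes of the general phenylpropanoid steps, 6 of the early flavonoid steps, 9 of the late and decorating steps and 11 regulators. RNA sequencing compared 3 libraries of seedlings treated with dexamethasone (DEX) with 3 libraries of seedlings treated with a mock solution. Every library came from 35S:GR-TCP5 seedlings aged 12 days, grown at 22 °C with 14 h of light a day and treated for 4 h. In this line the transcription factor TCP5, joined to the steroid-binding portion of the glucocorticoid receptor (GR), is made from the constitutive 35S promoter, and DEX lets such a fusion enter the nucleus. The labels give the DEX dose as 10 mM, above the micromolar doses usual for such lines, and that unit could not be checked. The mock solution held the same ethanol (0.1%) and silwet (0.015%) without dexamethasone. Since both groups carry the construct and no plants without it were measured, an effect of the steroid alone cannot be told apart from an effect of TCP5.

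General phenylpropanoid metabolism deaminates phenylalanine and activates the product as coumaroyl-CoA, which feeds lignin, sinapate esters and flavonoids alike. Chalcone synthase commits carbon to flavonoids. The early flavonoid enzymes then make dihydroflavonols and flavonols, which act as sunscreens, and the late enzymes make the red and purple anthocyanins of stressed seedlings. In Arabidopsis the early enzymes are switched on mainly by a trio of MYB factors, and the late enzymes by a complex of an R2R3-type MYB, a bHLH protein and the WD40 protein TTG1, which small MYB repressors can block.

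Exon counts per library ranged from 33428836 to 76859163. Replicates 1 and 2 of both groups share 1 date code and lane in the library names and replicate 3 of both groups has another, called the first and the second date below. The labels do not say whether replicates were separate cultures, so p-values reflect only how far these libraries spread, which may be technical. Levels are counts scaled to library size (CPM, with trimmed mean of M-values, TMM, factors), and fold changes are DEX over mock with standard errors (SE). TCP5 was at 233, 263 and 964 CPM with DEX and 323, 296 and 1177 CPM with mock. The native and introduced transcripts share that count. Its mean was 3.84-fold higher in the second date, and it did not pass between the groups (log2 fold change −0.31 ± 0.10, edgeR quasi-likelihood adjusted p = 0.152). The labels name seedlings without an organ. Summed over 12 root markers, leaving out the β-glucosidase gene PYK10, the level was 0.12 to 1.23 CPM in the first-date libraries and 150 CPM (DEX) and 310 CPM (mock) in the second-date pair. Each of those 12 was under 1 CPM in every first-date library, and 6 of them, among them the root hair genes EXP7 and RHD6 and the root meristem genes PLT1 and PLT2, had no count there. PYK10 itself was at 365, 301 and 1124 CPM with DEX and 556, 716 and 3105 CPM with mock, and it fell (log2 fold change −1.11 ± 0.17, adjusted p = 0.0118), by 0.93 in the first date and 1.47 in the second on the log2 scale. THAS1, a root triterpene synthase gene, fell too (adjusted p = 0.00628), from 16, 6 and 440 counts with mock to 0, 0 and 28 with DEX. Of the 5 root markers that could be tested 2 fell (40%, against 3.58% of all tested genes), and the median of the 5 was −1.77. CASP1 (−1.95 ± 0.79) and WOX5 (−1.77 ± 0.54) did not pass. Neither did the nitrate transporter gene NRT2.1, whose log2 fold change was positive (0.62 ± 1.08). In the first date PYK10 stood at 301 to 716 CPM, where the other 12 together reached at most 1.23 CPM. The part of root markers in the members' results was not tested. The 6 green shoot markers summed to 21884 to 29853 CPM with DEX and 24669 to 30372 CPM with mock. Fewer cells of a type and less RNA per cell cannot be told apart in such bulk libraries.

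Of the 34 genes, 32 had enough counts to be tested, and 5 of them fell after DEX and 0 rose (edgeR quasi-likelihood test, adjusted p under 0.05). The chalcone synthase gene CHS and the flavonoid hydroxylase gene F3'H fell among the early steps, LDOX and TT19 among the late steps, and the MYB gene PAP1 among the regulators. Of the 21934 genes tested in all, 3.58% fell, 1.09% rose and 4.67% thus changed in either direction. At an unadjusted p under 0.05 there were 18 lower and 2 higher members of 32, against 2587 lower and 1576 higher of the 21934 genes tested. DESeq2 and limma voom also called 0 rises. The replicate block left 3 falls, DESeq2 called 10, and leaving out 1 library gave 1 (without mock replicate 2) to 8 (without DEX replicate 1). Without the date term edgeR called 0 members and 0 genes in all. The median log2 fold change was −0.43 over the 32 tested members and 0.00 over all genes tested. In 17 members every DEX library lay below every mock library of its own date, a pattern that 17.8% of all tested genes had, and in 1 member, CPC, every DEX library lay above, as in 14.7% of all tested genes.

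**Figure D1:**
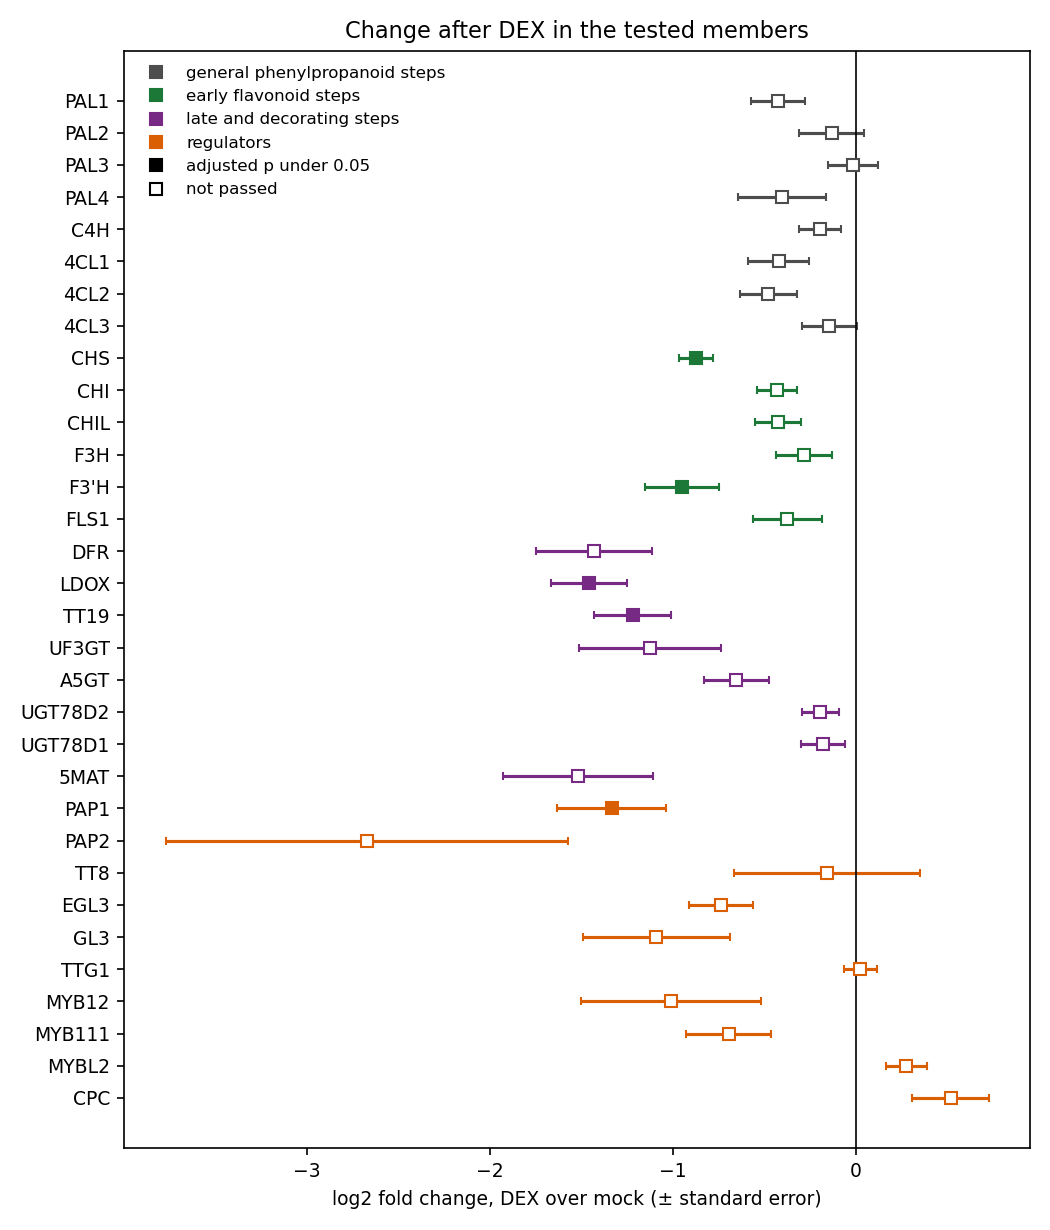
Log2 fold change (DEX over mock, ± SE, 3 libraries per group) of the 32 tested genes, coloured by role, with filled squares for an adjusted p under 0.05. The 5 filled squares lie between −0.87 (CHS) and −1.46 (LDOX), and the late genes 5MAT and DFR lie as far left without passing.

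The sequence just before the annotated gene start is shown for 4 of the genes that fell and for DFR, the late gene with the lowest adjusted p among those that did not pass, because these are the promoters on which regulators of the pathway act. They were read from the RefSeq TAIR10.1 genome by gene identifier, 5′ to 3′ along the gene, the last base being next to the gene start. The window of TT19 holds an exon of its neighbour AT5G17210 and is not printed. The windows of 4CL2, F3H, A5GT, UGT78D1, GL3 and MYBL2 hold exons of other loci too, and all windows were kept in the motif counts. Capitals mark matches on either strand to TGGNCC (the core of class II TCP sites), CACGTG (the G-box, bound by bHLH and bZIP factors) and ACCNAAC or ACCNACC (AC-rich elements bound by MYB factors).
CHS (chr5:4488226-4488475, plus strand): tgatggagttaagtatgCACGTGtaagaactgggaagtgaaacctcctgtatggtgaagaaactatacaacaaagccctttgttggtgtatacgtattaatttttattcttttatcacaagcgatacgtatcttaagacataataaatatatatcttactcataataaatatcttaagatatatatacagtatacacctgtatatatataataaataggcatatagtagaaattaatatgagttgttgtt
F3'H (chr5:2560078-2560327, plus strand): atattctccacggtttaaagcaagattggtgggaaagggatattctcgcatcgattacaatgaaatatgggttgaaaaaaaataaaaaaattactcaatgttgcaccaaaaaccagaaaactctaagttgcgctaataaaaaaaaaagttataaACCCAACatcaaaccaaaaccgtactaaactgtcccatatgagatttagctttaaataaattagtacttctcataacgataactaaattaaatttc
DFR (chr5:17166033-17166282, minus strand): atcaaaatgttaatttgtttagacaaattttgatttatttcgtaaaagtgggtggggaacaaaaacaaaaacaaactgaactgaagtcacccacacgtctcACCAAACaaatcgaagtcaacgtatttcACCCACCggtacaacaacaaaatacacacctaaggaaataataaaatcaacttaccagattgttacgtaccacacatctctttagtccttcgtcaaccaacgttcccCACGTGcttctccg
LDOX (chr4:12006210-12006459, minus strand): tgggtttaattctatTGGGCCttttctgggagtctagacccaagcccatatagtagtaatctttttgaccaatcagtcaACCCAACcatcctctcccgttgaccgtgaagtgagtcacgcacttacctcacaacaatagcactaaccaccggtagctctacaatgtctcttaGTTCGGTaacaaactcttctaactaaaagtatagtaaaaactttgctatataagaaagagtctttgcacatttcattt
PAP1 (chr1:21235293-21235542, minus strand): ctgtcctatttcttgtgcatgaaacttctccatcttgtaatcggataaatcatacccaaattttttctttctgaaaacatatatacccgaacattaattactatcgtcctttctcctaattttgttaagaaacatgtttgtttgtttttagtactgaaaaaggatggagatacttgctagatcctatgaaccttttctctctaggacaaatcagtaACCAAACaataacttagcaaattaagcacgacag

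Matches differed between these windows. CHS had a G-box at 233 to 228 bases before the start and no match to the other motifs. DFR had a G-box at 14 to 9 bases before the start and MYB elements starting 149 and 121 bases before it. LDOX held the TCP core, as TGGGCC at 235 to 230 bases before the start, with MYB elements starting 171 and 78 bases before it. F3'H and PAP1 each had 1 MYB element, starting 96 and 34 bases before the start. The TCP core occurred in 4 of the 34 windows (11.8%) and in 22.5% of the windows of the same length before 27443 protein-coding genes. It was found before LDOX, UF3GT, UGT78D1 and TTG1, and at UGT78D1 the pair of matches overlapped on opposite strands. A G-box occurred in 8 windows (23.5%, against 6.49% of all) and a MYB element in 16 (47.1%, against 19.3% of all). Of the 9 late genes 6 had a MYB element, of the 8 general genes 4 did, of the 6 early genes 3 did, and of the 11 regulators 3 did. A match describes the letters in these windows and is not a measured binding site.

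**Figure D2:**
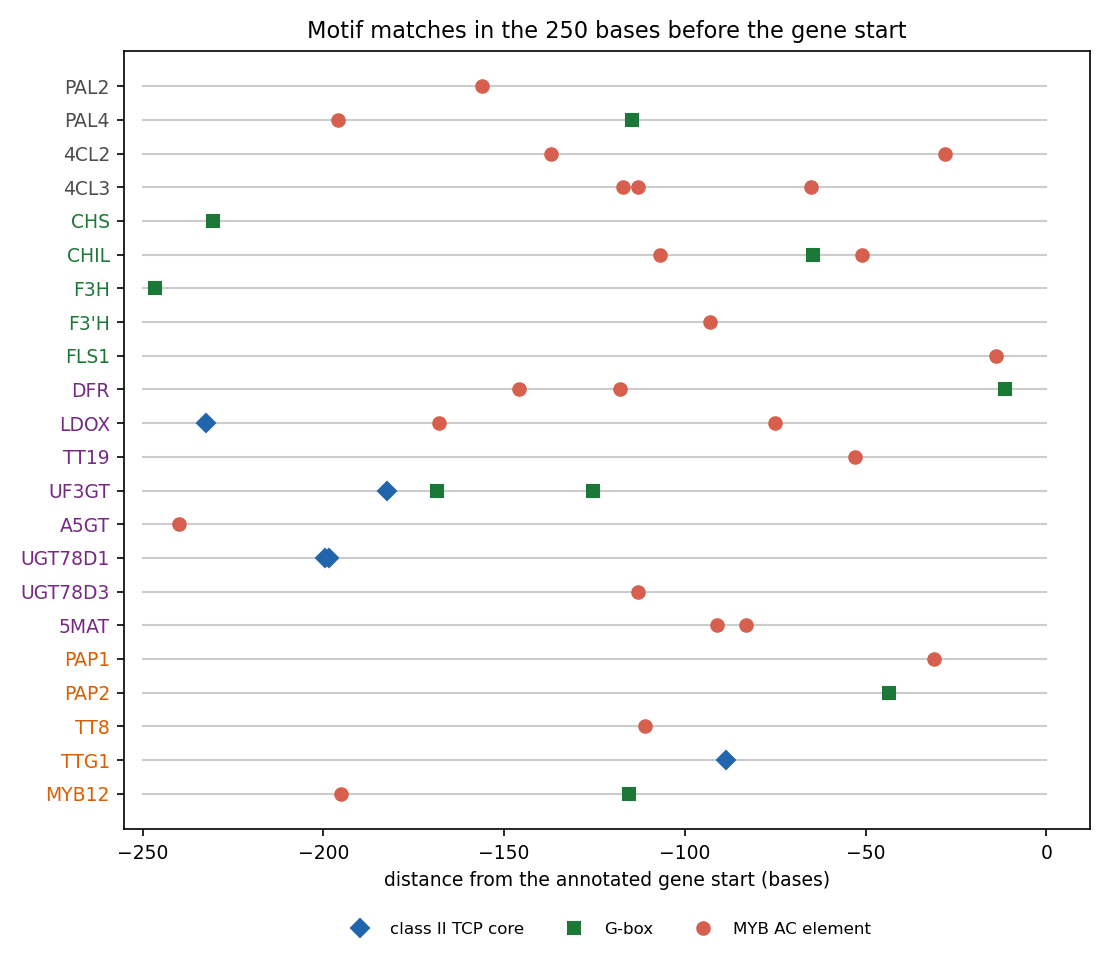
Positions of motif matches in the 250 bases before the annotated start of the 22 genes with at least 1 match (x axis, bases from the start; gene names coloured as grey for general, green for early, purple for late steps and orange for regulators). Over all 34 genes, MYB elements stand before 16, G-boxes before 8 and the TCP core before 4.

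The general steps come first in the pathway. None of the 8 genes passed the edgeR quasi-likelihood test, and DESeq2 and voom called 0. An unadjusted p under 0.05 was seen in 3, all lower, against 2587 lower and 1576 higher of the 21934 genes tested. All 8 fitted log2 fold changes were below 0, as were 49.3% of all tested genes, with a median of −0.30. PAL1 (AT2G37040), a phenylalanine ammonia-lyase gene, was at 102, 83.9 and 94.6 CPM with DEX in replicates 1, 2 and 3 and at 98.3, 127 and 156 CPM with mock. DEX replicate 1 thus stood above mock replicate 1, and the groups overlapped (log2 fold change −0.42 ± 0.15, adjusted p = 0.164). PAL2 (AT3G53260) was at 101 to 144 CPM with DEX and 108 to 194 CPM with mock (−0.13 ± 0.18), PAL3 (AT5G04230) at 21.4 to 31.8 and 15.9 to 36.0 CPM (−0.02 ± 0.14), and PAL4 (AT3G10340) at 5.87 to 9.41 and 7.64 to 17.4 CPM (−0.40 ± 0.24). PAL4 alone of the general genes passed in any alternative, without DEX replicate 1 (adjusted p = 0.0441), and the signs of PAL2 and PAL3 were not stable.

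Per kilobase of transcript, PAL2 and PAL1 made up most of the ammonia-lyase message. PAL2 held 48.9% ± 3.12 of the summed CPM per kilobase of the 4 PAL genes with DEX and 45.1% ± 4.63 with mock (SD, n = 3), PAL1 held 35.8% ± 1.26 and 40.0% ± 1.5, and PAL3 and PAL4 shared the rest. The PAL1 share was lower with DEX in every library, 34.6% to 37.2% against 38.4% to 41.4%. PAL1 and PAL2 transcripts are 81.7% identical with a longest identical run of 80 bases, so some reads could be assigned to either.

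C4H (AT2G30490) encodes cinnamate 4-hydroxylase, the membrane P450 that follows PAL. It was at 128, 120 and 217 CPM with DEX and 122, 137 and 298 CPM with mock (log2 fold change −0.20 ± 0.11, adjusted p = 0.417). In the first-date libraries the groups overlapped, and both second-date libraries stood far above them. None of the 4-coumarate:CoA ligase genes passed. 4CL2 (AT3G21240) was at 8.32, 7.25 and 12.2 CPM with DEX and 8.94, 9.56 and 23.5 CPM with mock, each DEX library below the mock libraries of its date (−0.48 ± 0.16, adjusted p = 0.142). 4CL1 (AT1G51680), which serves mainly lignin and overlaps AT1G51670, was at 62.7 to 99.9 and 93.1 to 113 CPM (−0.42 ± 0.17). 4CL3 (AT1G65060), the member tied to flavonoids, was at 3.35 to 6.67 and 3.83 to 6.57 CPM (−0.15 ± 0.15).

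For 7 of these 8 genes the difference between DEX and mock was lower in the second-date pair than in the first-date libraries, a relation that 46.1% of all tested genes had. The per-date log2 differences, computed with a prior of 2 counts, were −0.06 and −0.46 for C4H, −0.22 and −0.83 for 4CL1, and −0.17 and −0.94 for PAL4, first date then second. The summed root markers without PYK10 were lower in the DEX library of that second pair, 150 against 310 CPM, of which BGLU21 alone held 100 and 202 CPM. The part of these markers in the differences was not tested.

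Among the early flavonoid enzymes, all 6 fitted log2 fold changes were negative, as were 49.3% of all tested genes, and their median was −0.43. Of the 6 genes 2 fell (33.3%, against 3.58% of all tested genes). CHS (AT5G13930) was at 32.7, 35.0 and 53.6 CPM in the DEX libraries and at 68.0, 57.3 and 96.4 CPM in the mock libraries. No DEX library reached any mock library. The fall was 1.83-fold (log2 fold change −0.87 ± 0.09, adjusted p = 0.00419), at −0.88 in the first date and −0.84 in the second. PYK10 was lower with DEX in the same libraries of both dates, while the other 12 root markers together were at most 1.23 CPM in the first date. Their part in the CHS difference was not tested. CHS kept its call in 16 of 17 alternatives, among them the replicate block (adjusted p = 0.0154) and the omission of each library (0.00783 to 0.0322), and lost it when the date term was left out. The locus that overlaps it, AT5G13940, had at most 6 counts in a library.

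F3'H (AT5G07990) adds the hydroxyl group that turns kaempferol-type into quercetin- and cyanidin-type flavonoids. Its libraries stood at 3.56, 2.53 and 3.97 CPM with DEX and 6.11, 7.31 and 5.73 CPM with mock. The groups did not overlap, and the gap was wider in the first date (−1.15) than in the second (−0.53). Its log2 fold change of −0.95 ± 0.20 (adjusted p = 0.0412) lost the call with the replicate block (0.0824) and on leaving out any 1 library (0.0503 to 0.175, the highest without mock replicate 2).

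The other 4 early genes did not pass. CHI (AT3G55120), which encodes chalcone isomerase, was at 14.5, 11.9 and 19.3 CPM with DEX and 16.5, 17.1 and 29.1 CPM with mock (−0.43 ± 0.11, adjusted p = 0.0711), and passed with DESeq2 (0.0298) and without DEX replicate 1 (0.0229). CHIL (AT5G05270), a relative of chalcone isomerase without its activity that aids chalcone synthase, was at 7.77 to 10.5 and 11 to 14.3 CPM, with no overlap (−0.42 ± 0.13, adjusted p = 0.110). F3H (AT3G51240), the flavanone hydroxylase gene, was at 9.80 to 12.2 and 11.6 to 16 CPM (−0.28 ± 0.15). It overlaps AT3G51238, which was at 9.65 to 16.1 CPM with a log2 fold change of −0.29. Without strand the reads of that pair cannot be told apart. FLS1 (AT5G08640), the flavonol synthase gene, was at 7.36, 7.07 and 9.15 CPM with DEX and 7.5, 7.57 and 18.4 CPM with mock, so that nearly all of its difference (−0.37 ± 0.19) came from the second-date pair.

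**Figure D3:**
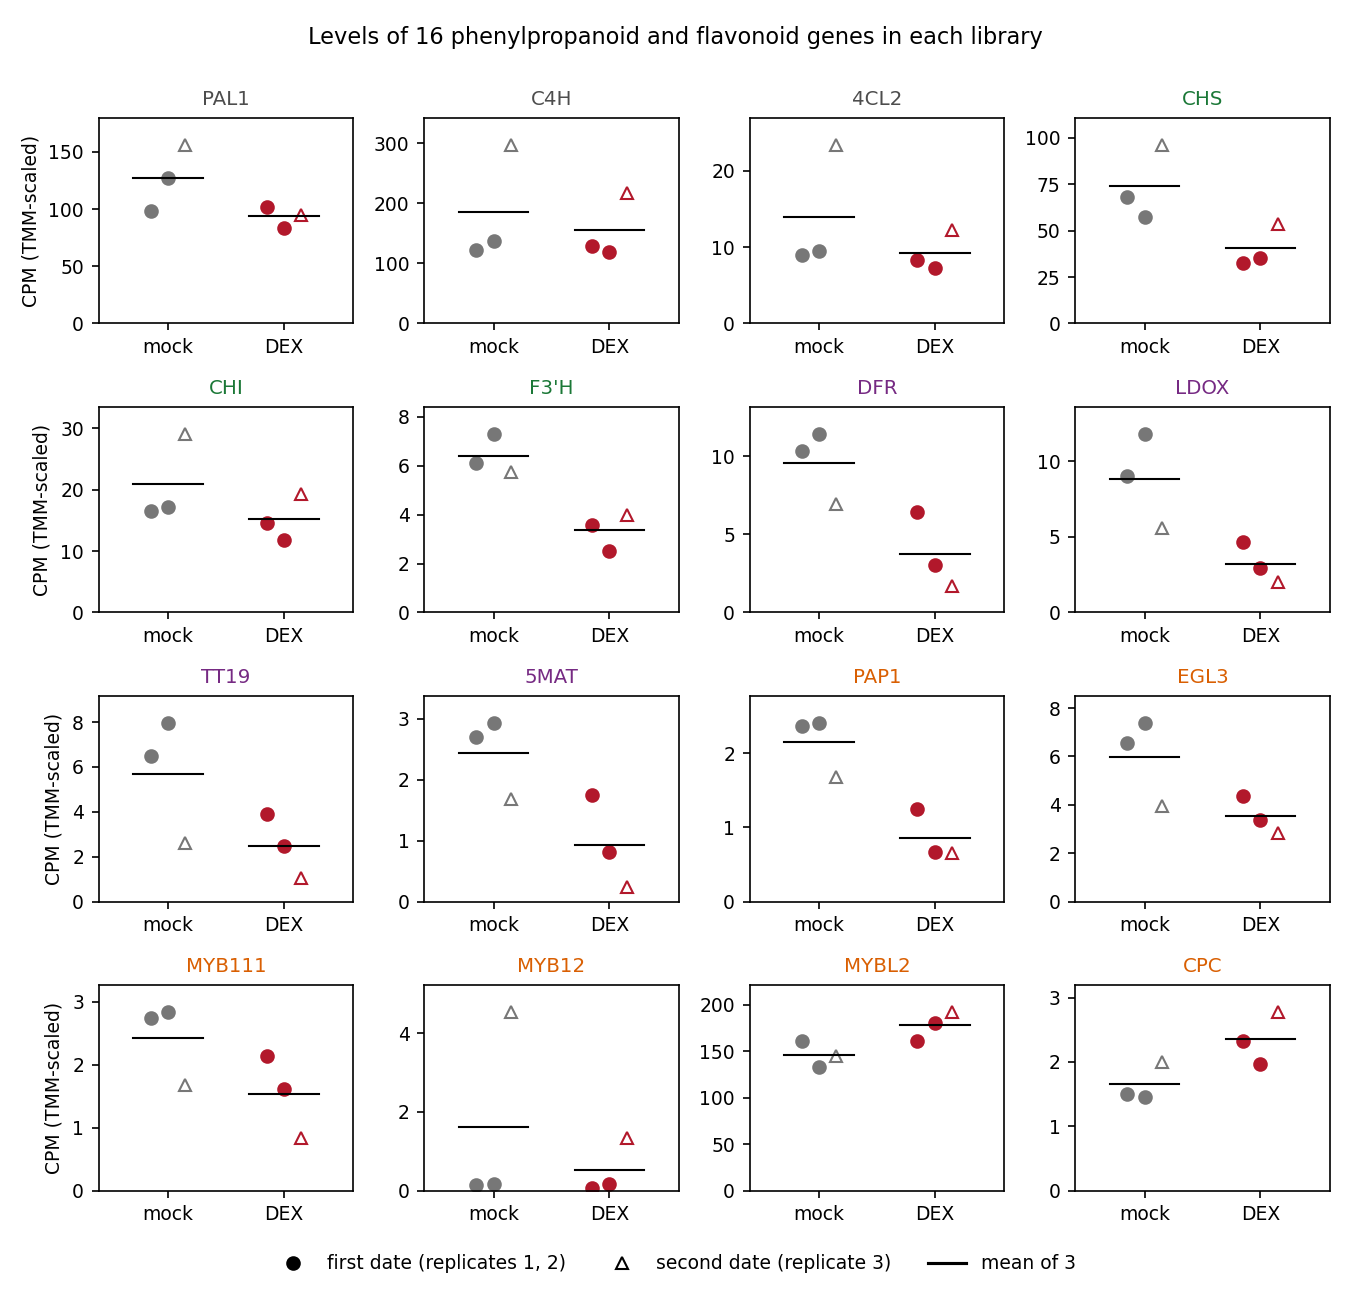
CPM of 16 genes in each library (y axes start at 0; circles, first date; open triangles, second date; lines, means of 3 libraries; titles grey for general, green for early, purple for late genes and orange for regulators). CHS, F3'H, DFR, LDOX and PAP1 show no overlap between the groups. TT19, 4CL2, CHI, 5MAT, EGL3, MYB111 and CPC show none within a date, CPC being higher with DEX. MYB12 is near 0 in the first date.

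Among the late and decorating genes 8 were tested. LDOX and TT19 fell (2 of 8, or 25%, against 3.58% of all tested genes). All 8 log2 fold changes were negative, as were 49.3% of all tested genes, and their median was −1.17. LDOX (AT4G22880), or anthocyanidin synthase, makes the coloured anthocyanidins. It was at 4.69, 2.95 and 2.01 CPM with DEX and 9.0, 11.8 and 5.61 CPM with mock. Even the lowest mock library lay above the highest DEX library, and the log2 difference was −1.46 in each date. The fall was 2.75-fold (−1.46 ± 0.21, adjusted p = 0.0100), and of the 6 libraries only the omission of mock replicate 2 ended the call (0.0532).

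TT19 (AT5G17220) encodes a glutathione S-transferase needed to bring anthocyanins into the vacuole. It was at 3.89, 2.50 and 1.04 CPM with DEX and 6.48, 7.97 and 2.61 CPM with mock. Mock replicate 3 fell among the DEX values, but within each date DEX was lower (−1.20 and −1.30). Its log2 fold change of −1.22 ± 0.21 (adjusted p = 0.0197) lost the call in the first date alone (0.0526) and on leaving out DEX replicate 2 (0.0805) or 3 (0.0708), or mock replicate 2 (0.109) or 3 (0.0668). TT19 overlaps AT5G17230, which was far more abundant at 102 to 234 CPM and had a log2 fold change of −0.09, so part of the TT19 count could belong to that locus.

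DFR (AT5G42800), the reductase that opens the anthocyanin branch, was at 6.44, 3.02 and 1.72 CPM with DEX and 10.3, 11.5 and 6.96 CPM with mock. The groups did not overlap, yet the DEX libraries of the first date differed by more than 2-fold, and the log2 fold change of −1.43 ± 0.32 did not pass (adjusted p = 0.0625). It passed with DESeq2 (0.000186), with voom (0.0265), with library totals as the scaling (0.0475) and without DEX replicate 1 (0.00310). 5MAT (AT3G29590), which adds malonyl groups to anthocyanins, was at 1.75, 0.81 and 0.24 CPM with DEX and 2.71, 2.93 and 1.68 CPM with mock (−1.52 ± 0.41, adjusted p = 0.0850). It passed with DESeq2 (0.00918) and without DEX replicate 1 (0.0179).

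Of the sugar transferase genes, UF3GT (AT5G54060), which extends the sugar of anthocyanins, was at 1.03, 0.83 and 0.18 CPM with DEX and 1.49, 1.58 and 1.00 CPM with mock (−1.12 ± 0.39, adjusted p = 0.162). A5GT (AT4G14090), annotated as the anthocyanidin 5-O-glucosyltransferase, was at 4.11, 3.02 and 2.37 CPM with DEX and 5.97, 5.77 and 3.32 CPM with mock (−0.65 ± 0.18, adjusted p = 0.0838). It overlaps AT4G06175 and AT4G14100, the latter at 11.3 to 17.4 CPM. UGT78D1 (AT1G30530), a flavonol rhamnosyltransferase gene, was at 29.6 to 57.2 CPM with DEX and 33.7 to 59.1 CPM with mock (−0.18 ± 0.12). UGT78D2 (AT5G17050), whose enzyme puts glucose on flavonols and anthocyanidins alike, was at 20.1 to 31.2 and 21.6 to 40.5 CPM (−0.19 ± 0.10). UGT78D3 (AT5G17030) had 2 to 8 counts per library and was not tested. Whether the anthocyanin genes differ from these transferase genes was not tested.

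**Figure D4:**
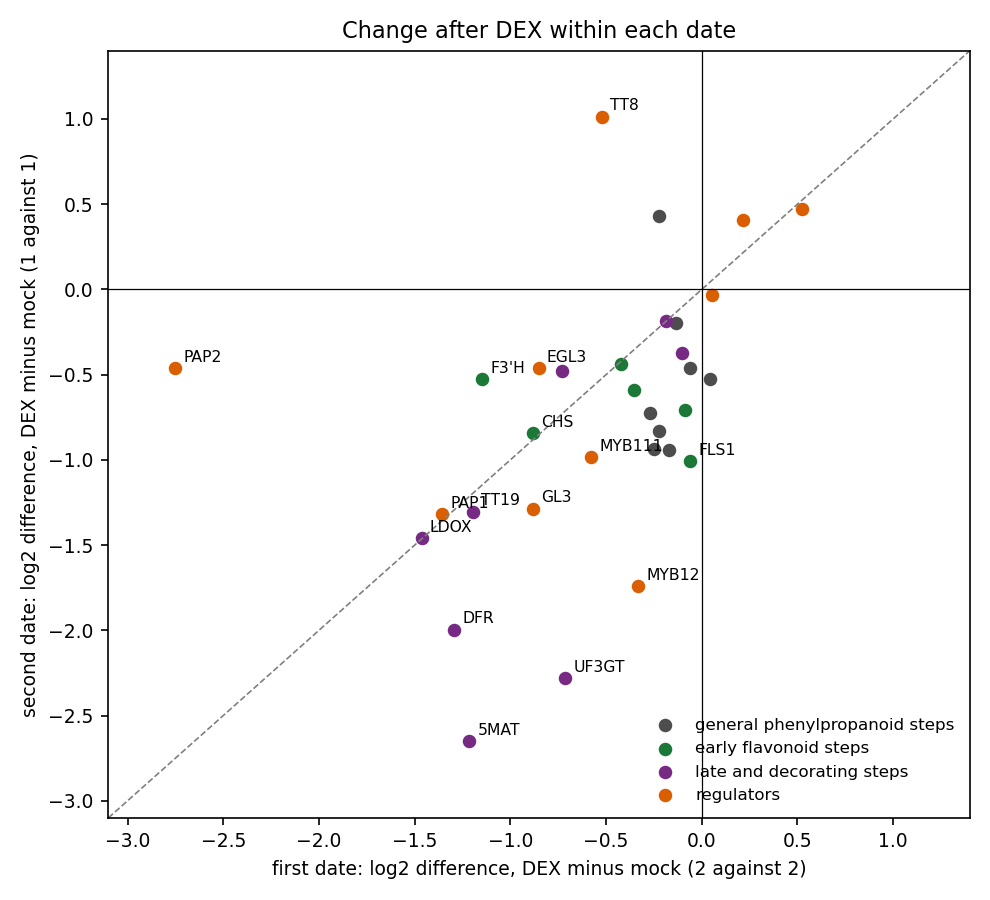
Log2 difference between DEX and mock within the first date (x axis, 2 libraries against 2) and within the second date (y axis, 1 against 1) for the 32 tested genes, with a prior of 2 counts and a dashed line of equality. CHS, LDOX, TT19 and PAP1 lie near the line, 5MAT, UF3GT and MYB12 far below it, and PAP2 and TT8 far above it. PAL2, PAL3, TT8 and TTG1 have opposite signs.

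Of 10 tested regulators 1 fell (10%, a single call, against 3.58% of all tested genes), and their median log2 fold change was −0.72. PAP1 (AT1G56650), the R2R3-MYB that activates the late genes, was at 1.25, 0.66 and 0.65 CPM with DEX and 2.36, 2.41 and 1.68 CPM with mock, from 22 to 73 counts and 52 to 184 counts. No DEX library reached a mock library, and the log2 differences of the dates were −1.36 and −1.32. The fall was 2.52-fold (−1.33 ± 0.30) and passed narrowly (adjusted p = 0.0459). The call was lost with the replicate block (0.0703), in the first date alone (0.103), with upper quartile scaling (0.0506) and without any 1 library (0.124 to 0.182) except DEX replicate 1 (0.0293).

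PAP2 (AT1G66390), a close relative of PAP1, had 0, 0 and 6 counts with DEX and 19, 12 and 8 counts with mock. Its fitted log2 fold change (−2.67 ± 1.1, adjusted p = 0.235) depends on the prior count. PAP2 and its tandem copy MYB114 are 83% identical with an identical run of 77 bases, and PAP1 and PAP2 are 80.7% identical with a run of 42 bases. MYB113 had 0 to 2 counts with DEX and 4 to 14 with mock, and MYB114 had 0 with DEX and 0 to 4 with mock. Both were too low to be tested, and reads could be split among these copies.

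The bHLH partners are EGL3, GL3 and TT8. EGL3 (AT1G63650) was at 4.38, 3.37 and 2.84 CPM with DEX and 6.56, 7.4 and 3.93 CPM with mock. Each DEX library was below the mock libraries of its date (−0.74 ± 0.17, adjusted p = 0.0543). It passed with DESeq2 (0.00784), with voom (0.0370) and with both other filters on low counts (0.0453 with none and 0.0481 with the stricter one). GL3 (AT5G41315), whose protein also drives trichome formation, was at 0.30 to 0.41 CPM with DEX and 0.60 to 0.98 CPM with mock, with no overlap (−1.09 ± 0.40, adjusted p = 0.186). TT8 (AT4G09820) was at 0.30 to 0.48 and 0.13 to 0.57 CPM (−0.16 ± 0.51), from 4 to 42 counts, and the dates had opposite signs. TTG1 (AT5G24520), the WD40 scaffold of the complex, was at 29.2 to 34.8 CPM with DEX and 28.7 to 35.6 CPM with mock (0.03 ± 0.09), a difference smaller than the spread within either group.

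The trio that activates the early genes and flavonol synthesis was low. MYB111 (AT5G49330) was at 2.14, 1.61 and 0.83 CPM with DEX and 2.73, 2.84 and 1.68 CPM with mock, lower with DEX within each date (−0.69 ± 0.23, adjusted p = 0.147). MYB12 (AT2G47460) was at 0.07, 0.17 and 1.33 CPM with DEX and 0.14, 0.16 and 4.54 CPM with mock (−1.01 ± 0.49, adjusted p = 0.322). Its mean was 22.3-fold higher in the second date, the widest such ratio among the tested members, and the root markers stood high in the same libraries. Their part in the MYB12 difference was not tested. MYB11 (AT3G62610) had 0 to 29 counts per library and was not tested.

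The repressors MYBL2 and CPC, small MYB proteins that compete for the bHLH partners, had positive log2 fold changes that did not pass. MYBL2 (AT1G71030) was at 161, 180 and 193 CPM with DEX and 161, 133 and 145 CPM with mock (0.28 ± 0.11, adjusted p = 0.222). CPC (AT2G46410), which also patterns root hairs, was at 2.33, 1.97 and 2.78 CPM with DEX and 1.5, 1.45 and 2.0 CPM with mock, higher with DEX within each date (0.52 ± 0.21, adjusted p = 0.225). Per kilobase MYBL2 was the most abundant of all members, at 110 CPM per kilobase with mock and 134 with DEX, while PAP1 stood at 1.94 and 0.77. The other regulators lay at 17.7 CPM per kilobase (TTG1, with DEX) or below.

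Levels of the members also differed between the dates. Of the 8 tested late genes 7 had a mean over 1.5 times lower in the second date, against 21.4% of all tested genes, from 0.35-fold for TT19 to 0.60-fold for A5GT, and UGT78D2 alone was higher (1.63-fold). Of the 6 early genes 3 were over 1.5 times higher (CHS, CHI and FLS1) and none lower, against 23.3% of all tested genes that were higher. Of the 8 general genes C4H (2.03-fold), 4CL2 (2.1-fold) and PAL4 (1.65-fold) were higher, and PAL3 (0.56-fold) and 4CL3 (0.58-fold) were lower. Of the 10 tested regulators 2 were higher and 3 lower by over 1.5 times. Date, lane, root markers, the TCP5 level (3.84-fold higher in the second date) and any difference in growth move together here and cannot be told apart.

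**Figure D5:**
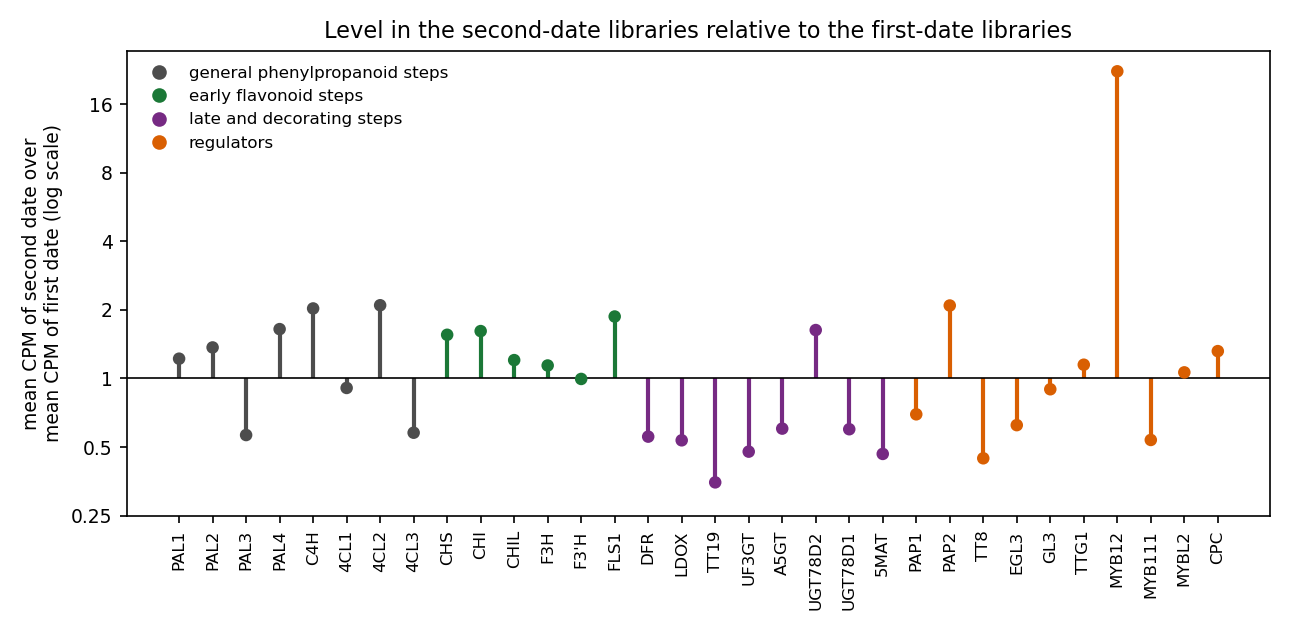
Mean CPM of the 2 second-date libraries over the mean of the 4 first-date libraries (log axis) for the 32 tested genes by role. The late genes other than UGT78D2 (1.63) lie between 0.35 (TT19) and 0.60 (A5GT), whereas the regulator MYB12 lies at 22.3.

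Intron counts gave a shallower second readout, since introns held 2.07% to 2.57% of the counts per library. Only 13 of the 34 members had enough intron counts to be tested, and CHS had 2 intron counts in all. By edgeR, 0 of the 13 passed, where 0.616% of the 12989 genes tested fell and 0.939% passed in either direction. At an unadjusted p under 0.05 there was 1 member, C4H, and the share of all genes at that threshold was not counted. DESeq2 called 0 falls. C4H had 22, 15 and 15 intron counts with DEX and 45, 45 and 29 with mock, lower within each date (log2 fold change −1.03 ± 0.34, adjusted p = 0.242), against −0.20 in its exons. TT19 had 9, 8 and 1 intron counts with DEX and 26, 53 and 3 with mock, and PAP1 had 3, 0 and 0 against 15, 20 and 0, both too few for the test. Of the 13 tested members 9 had a negative intron log2 fold change. For MYBL2 (−0.31 ± 0.22), CHI (0.45 ± 0.67) and A5GT (0.34 ± 0.58) it was opposite in sign to that of the exons. PAL3 (0.03 ± 0.59) and TTG1 (−0.02 ± 0.24), near 0 in both readouts, differed in sign too. None of these genes passed in either readout.

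Neighbouring branches of phenylpropanoid metabolism, from lists of other pathway genes, were counted against the 3.58% of all tested genes that fell and the 1.09% that rose. Of 11 lignin genes 2 fell and 0 rose, with a median log2 fold change of −0.36. An unadjusted p under 0.05 was seen in 5 of them, all lower, against 2587 lower and 1576 higher of the 21934 genes tested. CCR1, the cinnamoyl-CoA reductase gene, was at 71.0, 59.3 and 74.0 CPM with DEX and 84.3, 90.8 and 115 CPM with mock, without overlap (−0.50 ± 0.10, adjusted p = 0.0360). It overlaps AT1G05213 and AT1G15960. CAD5, a cinnamyl alcohol dehydrogenase gene, was at 37.2, 34.5 and 81.0 CPM with DEX and 51.6, 65.5 and 101 CPM with mock (−0.58 ± 0.12, adjusted p = 0.0403). Of 4 tested sinapate ester genes 1 fell. UGT84A2, which glucosylates sinapic acid, fell from 74.5, 69.7 and 131 CPM to 39.9, 38.1 and 87.7 CPM (−0.78 ± 0.10, adjusted p = 0.00578). Of 10 genes of other flavonol and anthocyanin decoration 1 fell. SCPL10, an acyltransferase-like serine carboxypeptidase gene that overlaps AT2G07855, was at 13.0, 12.6 and 1.89 CPM with DEX and 21.6, 19.5 and 3.58 CPM with mock (−0.74 ± 0.11, adjusted p = 0.0118).

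Of 19 other tested regulators 1 rose and 1 fell (5.26% each, against 1.09% and 3.58% of all tested genes), and the list's median log2 fold change was −0.08. The gene that rose was AT1G23390, annotated as a Kelch repeat F-box protein gene, at 451, 467 and 341 CPM with DEX and 261, 174 and 214 CPM with mock. Every DEX library exceeded every mock library (0.94 ± 0.17, adjusted p = 0.0227). MYB7, annotated as a repressor of flavonol synthesis, fell from 5.77, 6.66 and 8.15 CPM to 2.81, 2.29 and 5.42 CPM (−1.06 ± 0.19, adjusted p = 0.0231). The known regulators of PAP1 or its complex named here did not pass. HY5, a light-signalling bZIP gene, was at 4.06, 4.12 and 7.16 CPM with DEX and 5.55, 4.90 and 13.4 CPM with mock (−0.54 ± 0.16, adjusted p = 0.102). SPL9, which represses anthocyanin genes and overlaps AT2G09340, was at 8.27, 8.02 and 2.96 CPM with DEX and 11.1, 11.5 and 3.09 CPM with mock (−0.36 ± 0.13). The nitrate-responsive repressor genes LBD37, LBD38 and LBD39 had log2 fold changes of 0.01 ± 0.11, 0.00 ± 0.10 and −0.22 ± 0.08.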

How the data were processed

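The deposited files hold raw read counts per gene with 1 library per file, for exons, for introns and for both together, beside a gene length in bases, per the file headers. The submitters' processing notes name STAR and DESeq2 and give no version. For the counter, build and annotation, names were not given in the sources used here. The kit named in the labels' protocols does not mark strand. Between 16.6% and 25.8% of exon counts from 1 to 20 were odd, so counts were not treated as a number of independent molecules.

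The test on exon counts used edgeR 4.0.16 under R 4.3.3 (TMM, filterByExpr with a minimum count of 10 and total of 15, robust quasi-likelihood F-test, date and treatment as terms, Benjamini-Hochberg adjustment over all genes tested, threshold 0.05). SE is the log2 fold change over the square root of F. Intron counts had their own fit. Per-date log2 values used a prior of 2 counts. The test was checked on simulated data. Alternatives were other scalings and filters, DESeq2 1.42.0, limma 3.58.1 voom, the replicate block, no date term, the first date alone, exon plus intron counts and the omission of each library. Deviations from the group mean correlated over genes between libraries of the same number (r = 0.63, 0.61 and 0.88), which met the rule for a replicate block, although DEX replicate 1 correlated more with mock replicate 2 (0.69). The highest correlations were within a date. No library duplicated another (lowest chi-square per degree of freedom 28.5).

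Names, overlaps and promoter windows came from RefSeq TAIR10.1, which held all 34 members. For 25 of them the files' length matched the RefSeq exonic length exactly, and per-kilobase levels use the length in the files. All members are named, with the genes of 5 other pathway lists that passed and a few regulators named whatever they showed. Members, lists and motifs were chosen with earlier results of these data known.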

Additional observations from a re-analysis of the deposited data

How the results depend on the processing

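Of 1024 genes called over the whole table and 5 members that fell (2 early, 2 late, 1 regulator, 0 general), 17 alternatives gave the following. Without the date term edgeR called 0 genes, 0 members, 0 early, 0 late and 0 regulators (798 genes at an unadjusted p under 0.05). With the replicate block 571 genes, 3 members, 1 early and 0 regulator genes were called, and CHS, LDOX and TT19 kept the call. The first date alone gave 3 members, 1 of them late and 0 regulators. DESeq2 called 2065 genes and 10 members, 5 late and 2 regulators. Upper quartile scaling gave 0 regulators. Voom, no filter and the filter of 1 CPM in 3 libraries gave 2 regulators each. Leaving out 1 library at a time gave 279 to 1132 genes, 1 to 8 members, 1 to 2 early, 0 to 4 late, 0 to 1 regulator and 0 to 1 general members. The lowest counts came without mock replicate 2. The cause of these shifts was not tested, beyond the smaller number of libraries.

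No alternative called a member that rose on exons. On introns DESeq2, no filter, no date term, the replicate block and the omission of each library were run, and 0 members fell in any of them. The other scalings, voom, the 1 CPM filter and the first date alone were not run on introns. Some log2 fold changes near 0 changed sign. PAL3 went to 0.027 with library totals and PAL2 to 0.072 in the first date alone. On leaving out 1 library at a time PAL2 ranged from −0.34 to 0.074, PAL3 from −0.22 to 0.091, TT8 from −0.53 to 0.20 and TTG1 from −0.032 to 0.077. No member that fell changed sign in any alternative run. Low counts limit PAP2, TT8, GL3, UGT78D3, MYB11 and the intron readout most.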

Other observations

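The genes in these paragraphs were chosen after their values were seen. Genes of the proanthocyanidin branch, which colours the seed coat, were nearly silent. Of the 9 listed, 6 were too low to be tested, and TT1, TT2 and TT16 had no count in any library. The seed coat markers BAN, TT12, AHA10 and TT10 together were at 0.47 to 0.75 CPM with DEX and 0.77 to 0.96 CPM with mock. TTG2 and TT15, which also act outside the seed coat, were at 2.61 to 5.43 and 14.1 to 21.5 CPM with DEX, with log2 fold changes of 0.06 ± 0.18 and 0.09 ± 0.12 that did not pass.

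Regulators of trichome formation share TTG1, GL3 and EGL3 with the anthocyanin complex. The MYB gene GL1 was at 1.49, 1.49 and 0.18 CPM with DEX and 2.13, 1.99 and 0.64 CPM with mock (log2 fold change −0.74 ± 0.32, edgeR adjusted p = 0.257), lower with DEX within each date. The small MYB repressor genes TRY (−0.44 ± 0.28), ETC1 (0.66 ± 0.50) and ETC3 (0.26 ± 0.24) did not pass either.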
